A study of Canis lupus familiaris with 48 samples.

Results

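Cells of the MDCK I line, which derives from dog kidney epithelium, were compared after 24 h in medium made hyperosmotic with NaCl and after 24 h in medium made equally hyperosmotic with urea. The comparison used 24 of the 48 RNA sequencing libraries of the study: the 12 titled Natrium, which had 200 mOsm of added NaCl, and the 12 titled Urea, which had 200 mOsm of added urea. Both media came to 500 mOsm, against 300 mOsm in the regular medium of the 12 control libraries. A further 12 libraries with 200 mOsm of raffinose serve here as a reference level and in a direct test against NaCl. The filter on genes and the estimate of spread used all 48 libraries. The cells of every group had been grown for 144 h in all in serum-containing medium on uncoated plastic. Each group held 1 library at each of the same 12 cell passages, from 1 to 19, so that every NaCl library had a urea library of the same passage number. All replicates are thus passages of a single line, and the labels do not say whether libraries with the same number came from the same culture.

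NaCl and urea are the main solutes of the renal medulla, where the urine is concentrated. NaCl stays largely outside the cell, so added NaCl makes the medium hypertonic: water leaves, the cell shrinks, and the transcription factor NFAT5 turns on genes for the uptake and synthesis of small organic osmolytes and for chaperones. Urea passes through the membrane, so it raises the osmolality with little lasting change in volume, while it acts on the stability of proteins inside the cell. The contrast at equal osmolality therefore sets a solute that stays outside against one that enters, and the 2 media also differ in their sodium and chloride. Raffinose, a sugar that does not enter the cell readily, brings no added salt.

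Counted reads per library ran from 6767612 to 14400623 after NaCl and from 3915449 to 14998157 after urea. Levels are given in CPM, the read count of a gene set against the scaled total of its library. The upper limit for a gene with 0 reads, 3 reads, was 0.20 to 0.766 CPM in these 24 libraries, for counting error only. The genes carry Ensembl identifiers, and 0 of 32704 could be paired with a symbol. Gene lists for osmolytes, transporters and cell markers were therefore not analysed here, genes are described by position on the dog genome build CanFam3.1, and what the named genes encode is not given. The kit did not mark the strand, so reads of overlapping genes cannot be told apart.

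The solute changed most of the measured transcriptome. In edgeR's quasi-likelihood test, at an adjusted p under 0.05, NaCl and urea differed in 9183 of 12654 tested genes (72.6%). NaCl was the higher side in 4519 of them (35.7% of those tested) and urea in 4664 (36.9%). In 1718 genes (13.6%) every NaCl library was above every urea library, and in 1421 (11.2%) every urea library was above every NaCl library. The typical difference was modest: over the 10084 genes with a mean of at least 5 CPM the median absolute log2 fold change was 0.396, against a median SD between the libraries of a group of 0.195 after NaCl and 0.207 after urea. The plot of fold change against level shows differences at every level of expression.

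**Figure D1:**
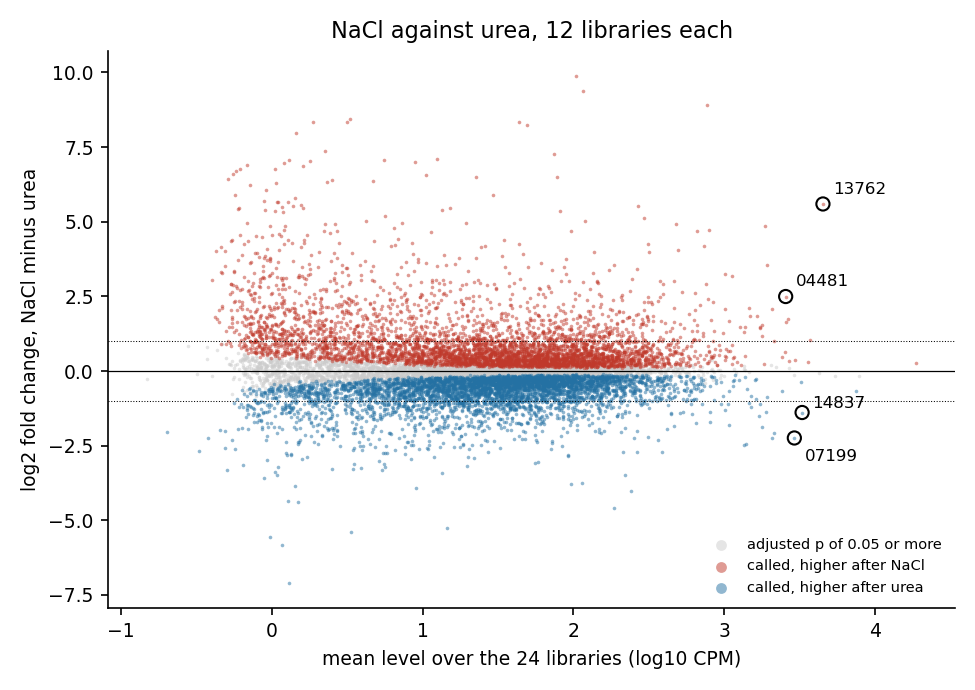
Each point is 1 of 12654 tested genes, with its mean level over the 24 libraries (log10 CPM) on the horizontal axis and its log2 fold change, NaCl minus urea, on the vertical axis. Red and blue mark the 4519 and 4664 genes called higher after NaCl and after urea, dotted lines mark 2-fold, and circles mark the 4 genes described by identifier, labelled with their last digits. The largest differences lie on the NaCl side.

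Though the calls were nearly even in number under the scaling used, the largest differences were mostly on the side of NaCl. Of 2473 genes called with a difference of 2-fold or more (19.5%), 1452 (11.5%) were higher after NaCl and 1021 (8.07%) after urea. At 4-fold or more the counts were 523 (4.13%) and 169 (1.34%), and at 8-fold or more 231 (1.83%) and 31 (0.245%). At 16-fold or more there were 111 genes (0.877%) higher after NaCl against 9 (0.0711%) higher after urea. Thus the share of genes on the NaCl side went from 58.7% at 2-fold to 92.5% at 16-fold. Scaled by library totals only, which put the median log2 fold change of all genes at -0.10, these shares were 50.3% and 91.4%. That scaling put 41.4% of all calls on the NaCl side, in place of 49.2%. The near-even calls and the excess at 2-fold thus depend on the scaling. Part of these genes were scarce: at a mean of at least 5 CPM over all libraries, 1542 genes were at least 2-fold apart, 899 of them higher after NaCl. A fit of the NaCl and urea libraries only gave 2175 such genes, with 1235 higher after NaCl.

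For each solute, the 2 genes with the largest difference in mean CPM are described by identifier. They were taken from the genes called at 2-fold or more that had a mean of at least 5 CPM and whose 12 pairs of equal passage all went one way. For NaCl 816 genes met these conditions and for urea 729, and the choice favours large shifts in reads over large ratios. The annotation of none of these 4 genes overlaps another gene.

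ENSCAFG00000013762, a gene of 10 exons on the minus strand of chromosome 7 (19668011 to 19674918), had the largest excess of reads after NaCl among the genes that met these conditions. Its level after NaCl had a median of 9686 CPM, with 2833 in the lowest library (passage 5) and 13076 in the highest (passage 13). After urea the median was 177 CPM, from 95.7 to 295. The lowest NaCl library was thus far above the highest urea library, although the NaCl libraries themselves spread widely. The log2 fold change was 5.59 ± 0.25 (SE, n = 12 per group), a 48.3-fold difference, with an adjusted p of 7.12e-26 from edgeR. The gene took 0.849% of all counts after NaCl, 0.0188% after urea, 0.0122% in control and 1.38% after raffinose. Against control it was higher after both solutes, with a log2 fold change of 6.29 ± 0.26 after NaCl (adjusted p = 2.12e-27) and 0.70 ± 0.21 after urea (adjusted p = 0.00448). It was lower after NaCl than after raffinose (-0.76 ± 0.21, adjusted p = 0.00854).

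ENSCAFG00000004481, a gene of 15 exons on the plus strand of chromosome 20 (4531730 to 4616854), was already well expressed without added solute. Its median was 4026 CPM after NaCl, from 3193 to 7055, and 773 CPM after urea, from 552 to 978. The NaCl and urea groups did not overlap. Control had a median of 727 CPM, from 597 to 937, and the urea libraries reached a little past this range at both ends. The log2 fold change between NaCl and urea was 2.49 ± 0.13 (adjusted p = 2.31e-23). Against control, NaCl gave 2.53 ± 0.13 (adjusted p = 1.46e-23) and urea 0.04 ± 0.12 (adjusted p = 0.81). In each of the 4 groups, the highest value of this gene came from passage 17.

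In the other direction, ENSCAFG00000007199, with 9 exons on the plus strand of chromosome 27 (2221689 to 2229112), had a median of 4856 CPM after urea, from 3731 to 5883. After NaCl it had 1025 CPM, from 836 to 1251. Control lay between the groups, with a median of 3176 CPM, and overlapped the urea range but not the NaCl range. The log2 fold change of NaCl against urea was -2.24 ± 0.10 (adjusted p = 7.94e-27). It combined a fall after NaCl (-1.70 ± 0.09 against control, adjusted p = 5e-22) with a rise after urea (0.55 ± 0.09, adjusted p = 1.77e-06). NaCl and raffinose gave similar means of 1016 ± 143 and 946 ± 144 CPM (SD, n = 12).

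ENSCAFG00000014837, with 54 exons on the minus strand of chromosome 36 (30537639 to 30677658), had the second largest excess of reads after urea by these conditions. Its median was 4700 CPM after urea, from 3854 to 5712, and 1777 CPM after NaCl, from 1429 to 2442. Every urea library was also above every control library, the highest of which had 3490 CPM. The log2 fold change was -1.39 ± 0.08 (adjusted p = 1.48e-21), with a fall after NaCl of -0.63 ± 0.08 (adjusted p = 8.91e-10) and a rise after urea of 0.76 ± 0.08 (adjusted p = 1.07e-11) against control. Per length, after urea ENSCAFG00000007199 reached 3246 CPM per kb of exon and ENSCAFG00000014837 reached 630, while after NaCl ENSCAFG00000013762 reached 2404 CPM per kb and ENSCAFG00000004481 reached 664.

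**Figure D2:**
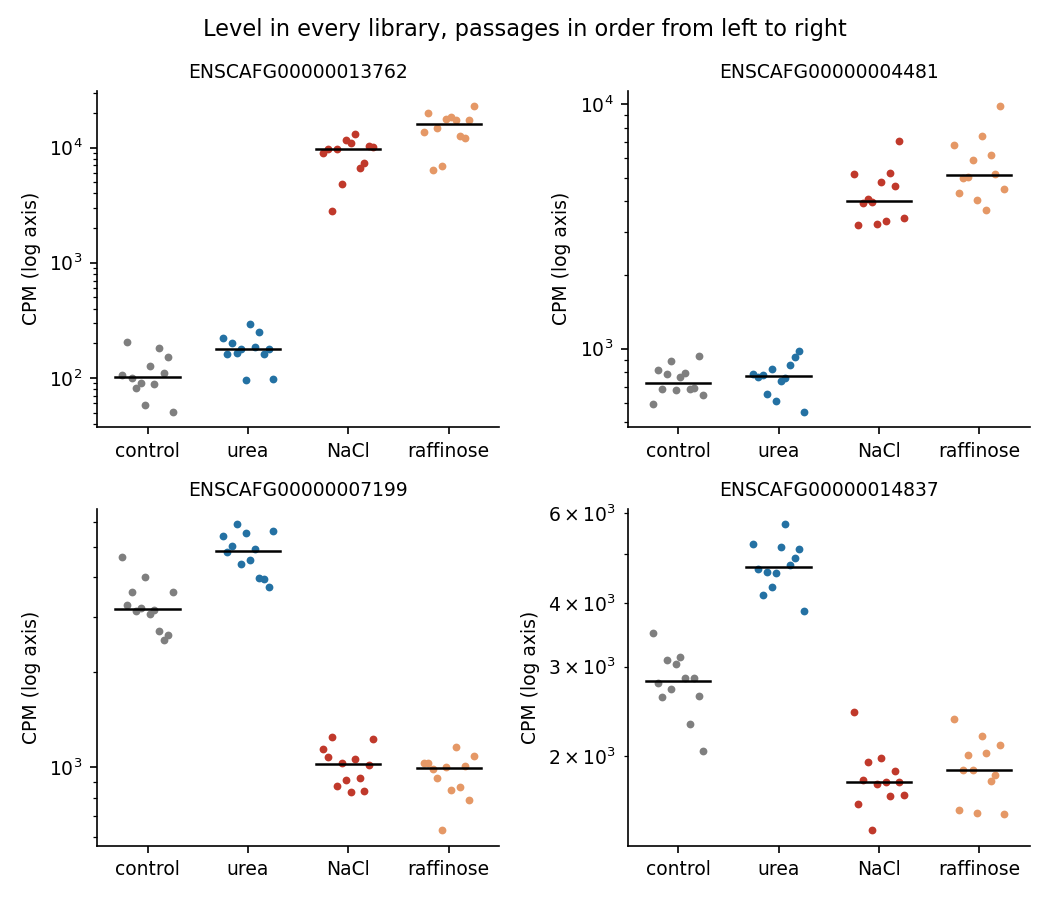
CPM (log axis) of the 4 genes in each library of control, urea, NaCl and raffinose, 12 points per group ordered by passage, with a line at the group median. In each panel the NaCl and urea points do not overlap, and raffinose lies on the side of NaCl.

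The excess of reads after NaCl lay in fewer genes than the excess after urea, which is given as a description. Between the mean profiles, 20.5% of all counts lay in different genes. After NaCl 129 genes held 50% of the excess and 24 held 25% of it. After urea the numbers were 284 and 40. ENSCAFG00000013762 alone made up 4.05% of the NaCl excess and ENSCAFG00000007199 1.94% of the urea excess. Among the 50 nuclear genes with the highest CPM per kb in each group, 18 were common to NaCl and urea, 42 to urea and control, and 21 to NaCl and control (genes with at least 300 bases of exon).

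Control and raffinose libraries were not part of the contrast, and their levels place it. For each gene that differed at least 2-fold, the group means were put on a log2 scale on which urea is 0 and NaCl is 1. The control mean was nearer to urea in 1097 of the 1452 genes higher after NaCl (75.6%) and in 818 of the 1021 higher after urea (80.1%), with median places of 0.18 and 0.20. Control lay beyond urea, so that the urea mean was between control and NaCl, in 419 and 265 genes of the 2 sets. It lay beyond NaCl in 105 and 40.

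Against control, each solute had its own changes in these genes; the 2 comparisons share the control libraries, and the genes were chosen for a difference between the solutes. Over all tested genes, 70.7% were called between NaCl and control and 52.3% between urea and control. Of the 1452 genes higher after NaCl, 1245 were above control after NaCl (34.6% of all tested genes were) and 53 were below. After urea 671 of them were below control (24.9% of all tested genes) and 187 above (27.4%). The median log2 fold changes against control were 1.33 after NaCl and -0.35 after urea. Of the 1021 genes higher after urea, 932 were below control after NaCl (36.1% of all tested genes) and 13 above, and after urea 507 were above control and 112 below. The corresponding medians were -1.13 and 0.28. By these medians the change after NaCl was the larger, and the change after urea was smaller and opposite in sign. Choosing genes for a difference between the solutes favours opposite signs.

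Raffinose fell on the NaCl side almost throughout. Its mean was nearer to NaCl than to urea in 1436 of the 1452 genes higher after NaCl (98.9%) and in 1001 of the 1021 higher after urea (98.0%). Its median places of 1.07 and 1.10 were beyond the NaCl mean. In the direct test of NaCl against raffinose, which calls 15.4% of all tested genes (7.42% with NaCl higher, 7.97% with raffinose higher), 22% of the genes higher after NaCl and 26.2% of those higher after urea were called. In 270 and 218 of these genes raffinose lay further from urea than NaCl did, and in 50 and 50 NaCl lay further.

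**Figure D3:**
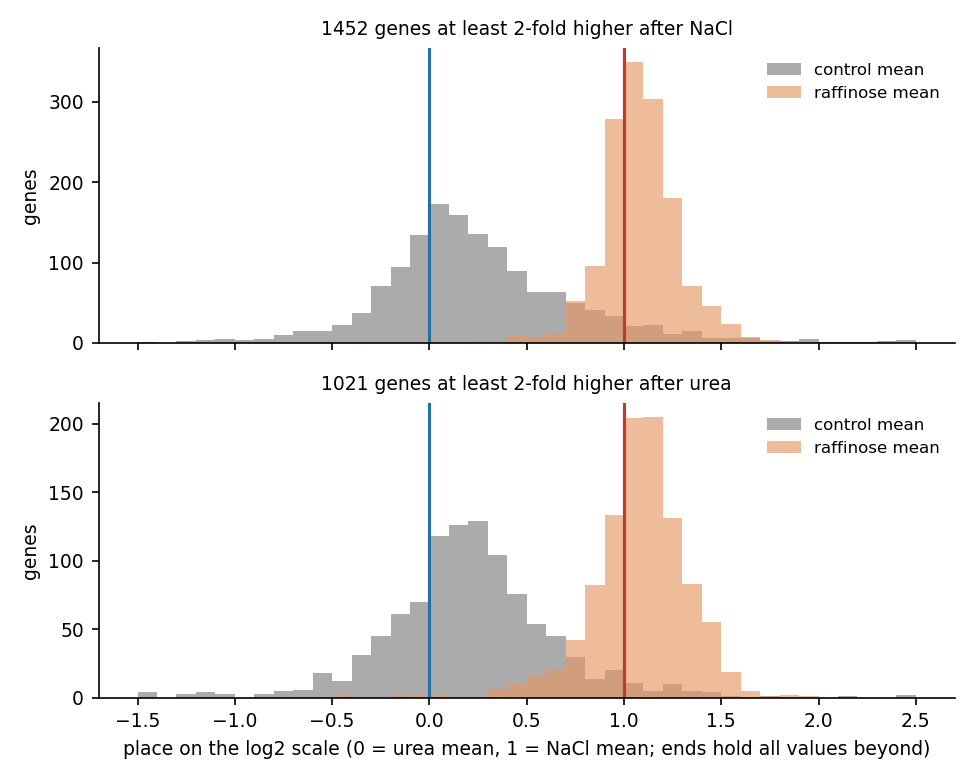
Number of genes by the place of the control mean (grey) and the raffinose mean (orange) on a log2 scale from the urea mean (0, blue line) to the NaCl mean (1, red line), for the 1452 genes at least 2-fold higher after NaCl and the 1021 at least 2-fold higher after urea. Control gathers near urea, with medians of 0.18 and 0.20, and raffinose near or past NaCl, with medians of 1.07 and 1.10.

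Genes almost without reads after 1 solute were more numerous after urea. With at most 3 reads summed over the 12 urea libraries, 109 of all 32704 genes had a mean of at least 0.25 CPM after NaCl, and 29 of these had no read after urea. Their NaCl levels were low, with a median of 0.46 CPM and a highest value of 6.63 CPM, but 72 of them had a read in all 12 NaCl libraries. In control, 49 of the 109 also had at most 3 reads, and after raffinose 94 had a mean of at least 0.25 CPM. In reverse, 20 genes with at most 3 reads over the 12 NaCl libraries had at least 0.25 CPM after urea, with a median of 0.371 CPM and a highest value of 2.61 CPM. In control, only 1 of these 20 had at most 3 reads, so nearly all of them had more reads without added solute. After raffinose 0 of these 20 reached 0.25 CPM.

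Low reads of genes raised by NaCl were unevenly spread over the urea libraries. Of the 58 genes called at least 32-fold higher after NaCl, 36 had a read in the urea library of passage 5 and 34 in that of passage 1, against 16 to 29 in the other 10 urea libraries. These counts also depend on the total of a library. The 16 came from passage 8, the shallowest with 3915449 counted reads, and the 29 from passage 11, the deepest with 14998157. Passages 5 and 1 had 10091186 and 13864132 counted reads, fewer than passage 11. The urea libraries of passages 5 and 1 held the highest urea value of 16 and 13 of the 58 genes. Their median level there was 1.5% and 0.71% of the NaCl mean, and at most 0.014% in each other urea library. The control libraries, without added solute, had reads in 26 to 40 of the 58 genes, which were chosen for low levels after urea and not in control. The cause of the uneven spread was not tested. Without the urea libraries of passages 1 and 5 the median log2 fold change of the 58 genes was 6.65 in place of 6.34. Both libraries were picked for their high values of the same genes, so a rise is given by that choice. The genes that differed at least 2-fold then numbered 1544 higher after NaCl and 1035 higher after urea.

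The size of the difference depended on the level of a gene. Among the 3673 genes with a mean of 30 to 100 CPM, 6.02% were at least 2-fold higher after NaCl and 6.59% after urea. Among the 568 genes at 300 CPM or more these shares were 15.5% and 6.16%, and among the 2029 genes at 1 to 5 CPM they were 20.8% and 10.9%. The 541 genes under 1 CPM had 37.0% and 11.6%, but a gene this low enters the test mainly through a group in which it is higher, so these shares describe the filter as well. NaCl was thus the more frequent side among the most abundant transcripts, and the sides were near even from 5 to 100 CPM. It was also the more frequent side among scarce ones, where the filter can add to the shares, at 1 to 5 CPM too. The classes use the mean of the same 24 libraries, so a gene raised in 1 group moves to a higher class.

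**Figure D4:**
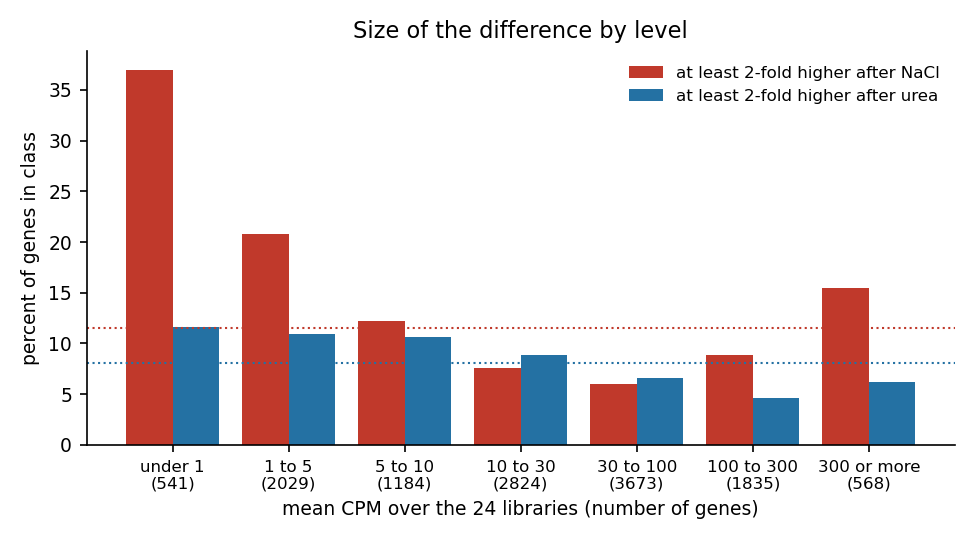
Percent of tested genes at least 2-fold higher after NaCl (red) and after urea (blue), by mean CPM over the 24 libraries, with the number of genes in each class. Dotted lines mark the shares over all tested genes, 11.5% and 8.07%; the red bars exceed theirs at both ends.

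Genes with long spans were more often on the NaCl side; this and the next groupings of genes are descriptions, with no test. In the sixth of genes with the longest spans, from 75987 bases up, 930 of 2109 were higher after NaCl (44.1%) and 658 higher after urea (31.2%). In the sixth with the shortest spans, up to 3641 bases, the counts were 630 (29.9%) and 750 (35.6%), where 35.7% and 36.9% of all tested genes were called on these sides. With genes of at least 5 CPM only, the median log2 fold change was 0.09 in the longest sixth and -0.06 in the shortest. By exonic length, the longest sixth had 39.4% and 36.3%, near the shares over all genes. Of 872 genes with a single exon, 27.3% were higher after NaCl and 34.3% after urea, the latter near the share over all genes. Of 471 genes with over 32 exons the shares were 44.2% and 31%.

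By nuclear chromosome, the median log2 fold change ran from -0.14 on chromosome 15 to 0.15 on chromosomes 13 and 35. On chromosome 35, 23.4% of 128 genes were at least 2-fold higher after NaCl and 6.25% after urea, against 11.5% and 8.07% over all tested genes. On chromosome 13 these shares were 18% and 7.2% of 250 genes, and on chromosome 22 they were 18.6% and 5.0% of 140. On chromosome 10 they were 12.8% and 3.68% of 462 genes, so that the NaCl share there was near that of all genes and the urea share below it. Chromosomes 15 and 9 had the reverse balance, with 8.75% and 12.8% of 343 genes and 8.7% and 11.6% of 770. Others were alike, among them chromosomes 21 (8.68% and 11.4%) and 30 (7.69% and 10.5%). On chromosome 27 both shares were above those of all genes, at 16.9% and 11.1% of 314 genes. With library totals only, each median was about 0.10 lower, and those of chromosomes 13 and 35 were 0.05. The 31 tested genes of the mitochondrial genome had a median log2 fold change of -0.15. Of these, 6 (19.4%) were called higher after NaCl and 8 (25.8%) higher after urea, below the 35.7% and 36.9% of all tested genes.

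Genes with a large difference in the same direction often lay side by side. Among 11551 pairs of neighbouring tested genes whose spans do not overlap, genes at least 2-fold higher after NaCl filled 11.6% of all places. Of those places, 21.9% had a neighbour that was also at least 2-fold higher after NaCl. For urea the values were 8.20% and 13.7%. A gene higher after NaCl had a neighbour at least 2-fold higher after urea in 6.01% of places, below the 8.20% of all places.

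The shares by distance and orientation were as follows. Where the gap was over 100 kb, 21.2% of places on the NaCl side had such a neighbour (14.2% of all places), while on the urea side it was 7.74% (8.50% of all places). Among divergent pairs at most 10 kb apart, whose start sites face each other, the shares were 25.5% for NaCl (7.34% of all places) and 11.9% for urea (6.15%). Among convergent pairs they were 15.8% (9.92%) and 14.1% (7.00%), and among pairs on the same strand 20.2% (8.73%) and 20.3% (8.99%).

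Unbroken runs of at least 3 tested genes, each at least 2-fold higher on the same side, numbered 66 for NaCl and 22 for urea. The NaCl set was also the larger, with 11.5% of tested genes against 8.07%, which by itself gives more runs. The 2 counts therefore do not compare how closely the sets cluster. The longest NaCl run had 7 genes on chromosome 2 (59225998 to 59706199), with log2 fold changes of 1.46 to 5.54. Next came runs of 6 genes on chromosome 1 (80993031 to 82072391, median 2.11) and on chromosome 12 (48358288 to 48850011, median 1.94). The longest urea run had 6 genes on chromosome 27 (2221689 to 2827413, median -1.30), and it starts with ENSCAFG00000007199. Neighbours can be copies of each other, and reads that fit several copies may be shared or lost in counting.

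Called genes mostly kept their direction over the passages, which their choice from the same libraries favours, and the size of the difference varied. Of the 9183 called genes, 5916 (64.4%) had the sign of their fold change in each of the 12 pairs of equal passage and 1712 in 11 of them, where 46.9% of all tested genes did so in each of the 12. Over genes of at least 5 CPM, the median absolute log2 ratio of a pair lay between 0.386 at passage 5 and 0.482 at passage 7. The number of genes at least 2-fold apart ranged from 1397 at passage 5 to 2096 at passage 7.

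A change of the difference with passage number was tested as a slope per 10 passages. The edgeR test called 0 of 12654 genes (0.0%), with 515 (4.07%) at an unadjusted p under 0.05 and a lowest adjusted p of 0.331. Over genes of at least 5 CPM the median SE of a slope was 0.16, and the 10th and 90th percentiles of the slopes were -0.20 and 0.21 log2 units. With the passage number as a replicate block, which uses the pairing, 8 genes were called, with a lowest adjusted p of 0.034.

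Each library was placed between both group means, its own value left out, over the 1566 genes with at least 5 CPM that differed at least 2-fold. These genes were chosen for a difference between the same libraries, so the separation of the groups is given by that choice, and only the order of the libraries within a group is described. On a scale with urea at 0% and NaCl at 100%, the medians of the NaCl libraries lay between 91.9% (passage 5) and 104% (passage 7), and those of the urea libraries between -5.11% (passage 10) and 5.74% (passage 1). At passage 5, where the pair differed least, the NaCl library was the lowest of its group and the urea library, at 3.66%, the second highest of its group.

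**Figure D5:**
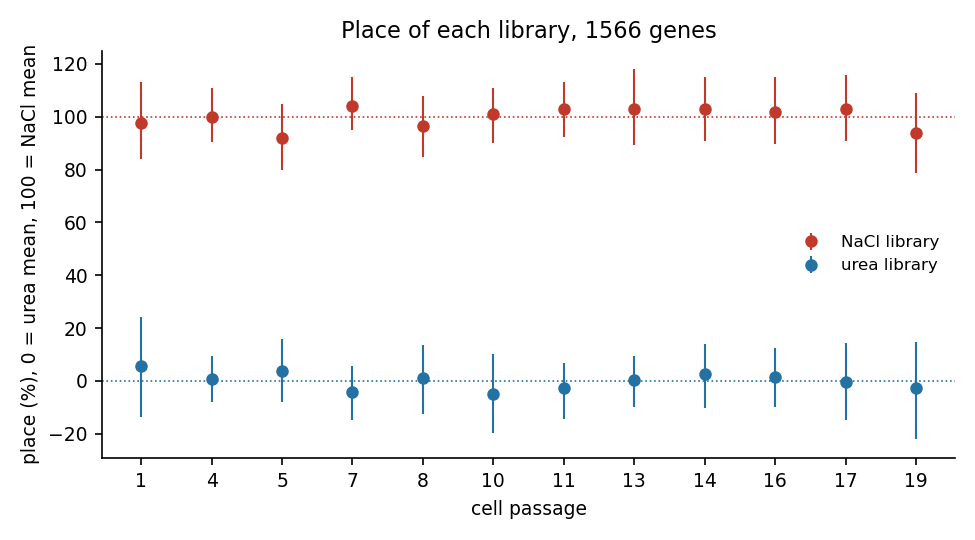
Place of each of the 24 libraries between the urea mean (0%) and the NaCl mean (100%) by cell passage, over 1566 genes; points are medians over genes and bars span the interquartile range of the genes. NaCl libraries lie between 91.9% and 104% and urea libraries between -5.11% and 5.74%.

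Spread within the groups was alike in size. The SD of log2 CPM was larger after urea in 5690 of the 10084 genes with at least 5 CPM (56.4%). It was at least 2 times as large after NaCl as after urea in 231 genes, and at least 2 times as large after urea as after NaCl in 302.

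Of 5 measures with 1 value per library, the number of detected genes differed between the groups. At 1 CPM or more, 12098 ± 86.6 genes were detected after NaCl and 11892 ± 83.1 after urea (SD, n = 12), with 12042 ± 102 in control, and NaCl was higher in 11 of 12 pairs (two-sided permutation test, p = 2e-05, the smallest that 100000 resamples can give; adjusted p = 0.0001). Genes of a single exon took 6.66 ± 0.639% of counts after NaCl and 7.40 ± 0.741% after urea, lower after NaCl in 9 of 12 pairs (permutation p = 0.0161, adjusted p = 0.0403; adjusted p = 0.0505 in the exact paired sign-flip permutation test). The 50 most abundant genes of a library took 15.6 ± 0.833% and 14.9 ± 0.841%, higher after NaCl in 9 of 12 pairs (permutation p = 0.0416, adjusted p = 0.052; paired adjusted p = 0.0354). The mitochondrial share, 4.74 ± 0.762% and 5.40 ± 0.682%, had an adjusted p of 0.052 by permutation, and the total number of reads one of 0.291.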

How the data were processed

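The authors deposited raw read counts per gene for 48 libraries of MDCK I cells. Per the labels' protocols, polyadenylated RNA was sequenced as single reads from TruSeq version 2 libraries. The submitters' processing notes name CASAVA, HISAT2 (version 2.0.5) and, for counting, featureCounts (version 1.5.1). Counting took exons, summed them by gene and ignored strand, on Ensembl release 87 of CanFam3.1, per the file headers. The exonic length in the deposited table gave values per kb. The passage 10 columns carry an added number that the sources used here do not explain. Unused columns of values numbered 0, as did rows without a gene.

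The test was that of edgeR 4.0.16, run in R 4.3.3 on the counts (filterByExpr, TMM factors, glmQLFit over all 48 libraries with a group term, glmQLFTest, Benjamini-Hochberg adjustment over 12654 genes). A log2 fold change was divided by the root of its F statistic to give its SE. CPM use scaled totals of the tested genes; 0.5 CPM was added for same-passage ratios and 0.1 CPM for places between group means. p-values measure the spread between passages of 1 line. The fit was also run on simulated counts. Few genes were changed there, so that run does not test the fit for differences as broad as these.

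Passage numbers were taken to pair libraries, since the labels give each passage to 1 library of every group. The deviations from group means of the 12 NaCl and urea libraries of equal passage had a mean correlation of 0.30, with 11 over 0.1 and -0.22 at passage 7, against -0.03 for the other 132.

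Members, groups of genes, the naming rule and the tests were chosen with earlier results of these data known. The naming rule gave no gene for the passage slope. Neighbours, runs, reads held by few genes, genes almost without reads, and the places of raffinose and of single libraries were added after the table was opened. Alternatives were RLE factors, library totals only, 2 other filters, DESeq2 1.42.0, the passage as a block or linear term, the NaCl and urea libraries only, glmTreat at 1.5-fold, and each passage left out.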

Additional observations from a re-analysis of the deposited data

How the results depend on the processing

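Of 84 alternative fits of the 4 genes named, 84 kept the direction and an adjusted p under 0.05. With each passage left out, the genes called numbered 8923 to 9118, those at least 2-fold apart 2449 to 2520, and those with a passage slope 0 to 0. With the passage number as a replicate block 9839 genes were called, including 9177 of the 9183, and 8 genes had a slope in place of 0. A minimum fold of 1.5 (glmTreat) left 3497 genes. Genes at least 2-fold apart numbered 4348 without a filter on low counts, which adds scarce genes, and 1542 at a mean of at least 5 CPM, which removes them. In the paired sign-flip test (replicate block) the share of the 50 most abundant genes passed (adjusted p = 0.0354) and that of single-exon genes did not (0.0505); the cause was not tested. Scaling by totals alone put 41.4% of calls on the NaCl side, in place of 49.2%. Without the urea libraries of passages 1 and 5, chosen after seeing the data, 9169 genes were called. A fit of the NaCl and urea libraries only called 8849 genes, including 8722 of the 9183. The shallowest library, with 3915449 reads, limits what can be seen of genes under 0.766 CPM.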
